A study of Mus musculus with 30 samples.

Results

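The comparison was between 10 mouse brains with no intact copy of Tmem106b (Tmem106b -/-, KO) and 10 with a single intact copy (Tmem106b +/-, HET). The 20 brains were chosen by the genotype label alone, out of 30 in the series, and the other 10 were wild type (WT). It asks what changed in brain RNA when the second copy was lost, after the first was already gone. All mice were 8 months old, and both sexes made up equal parts of each genotype (5 mice each). The cohort split was the same in each genotype, with 6 mice from cohort 1 and 4 from cohort 2. Total RNA came from the cerebral hemispheres and was extracted for all mice in a single experiment. The labels do not say what the cohort number stands for, and strain and targeting of the gene are likewise not given in the sources used here. Mean RNA integrity numbers (RIN) were 9.23 ± 0.22 over the HET mice and 9.35 ± 0.49 over the KO mice (SD, n = 10 each).

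Tmem106b encodes a membrane protein of late endosomes and lysosomes, the acidic compartments in which cells break down proteins and lipids, and common variants near the human gene are linked to the risk of frontotemporal dementia. Myelin is the stack of lipid-rich membrane that oligodendrocytes wrap around axons, and its makers depend on the transport of membrane through endosomes and lysosomes. Microglia, the brain's resident macrophages, and astrocytes carry many lysosomal enzymes and complement genes.

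Values are the deposited log2 RPKM, a level scaled for gene length and depth and then adjusted by conditional quantile normalization. A difference of 1 is a doubling, and groups are given by their lowest, median and highest brain. A gene was called at an adjusted p under 0.05 (limma, Benjamini-Hochberg over 23695 genes), and only called genes are said to rise or fall.

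Tmem106b RNA fell with the second copy. Its level ran from 8.54 through 8.58 to 8.62 in HET and from 7.43 through 7.52 to 7.67 in KO. Every KO brain was below every HET brain, with a gap of 0.88 between the nearest of them. The fitted difference was -1.05 ± 0.03 (log2 ± SE), which left 48.3% of the HET level (95% interval 46.5 to 50.2), with adjusted p = 1.21e-21 and a two-sided permutation p of 3e-05 over 100000 resamples. The KO brains thus still held reads of the gene. On the linear scale the HET to KO step took away 34.2% of the WT level and the WT to HET step 33.8%.

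Beyond the target few genes passed the test, which does not show that few genes changed. Of 23695 genes, 28 were called, 0.118% of those tested, with 21 lower in KO (0.0886%) and 7 higher (0.0295%). At an unadjusted p under 0.05 there were 2052 genes. Without KO replicate 7 the count was 44, 34 of them lower, and without KO replicate 10 there were 12 higher genes. The median difference over all genes was 0.00, and 48.2% of them were below HET in KO. The 27 other called genes had a median size of 0.22, on the log2 scale. In 10 genes, 0.0422% of those tested, the ranges of KO and HET did not overlap, and 9 of these were called. All 28 called genes had the same direction in both cohorts and in both sexes. They were called from these same brains pooled, so this agreement was partly built in and is no replication.

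**Figure D1:**
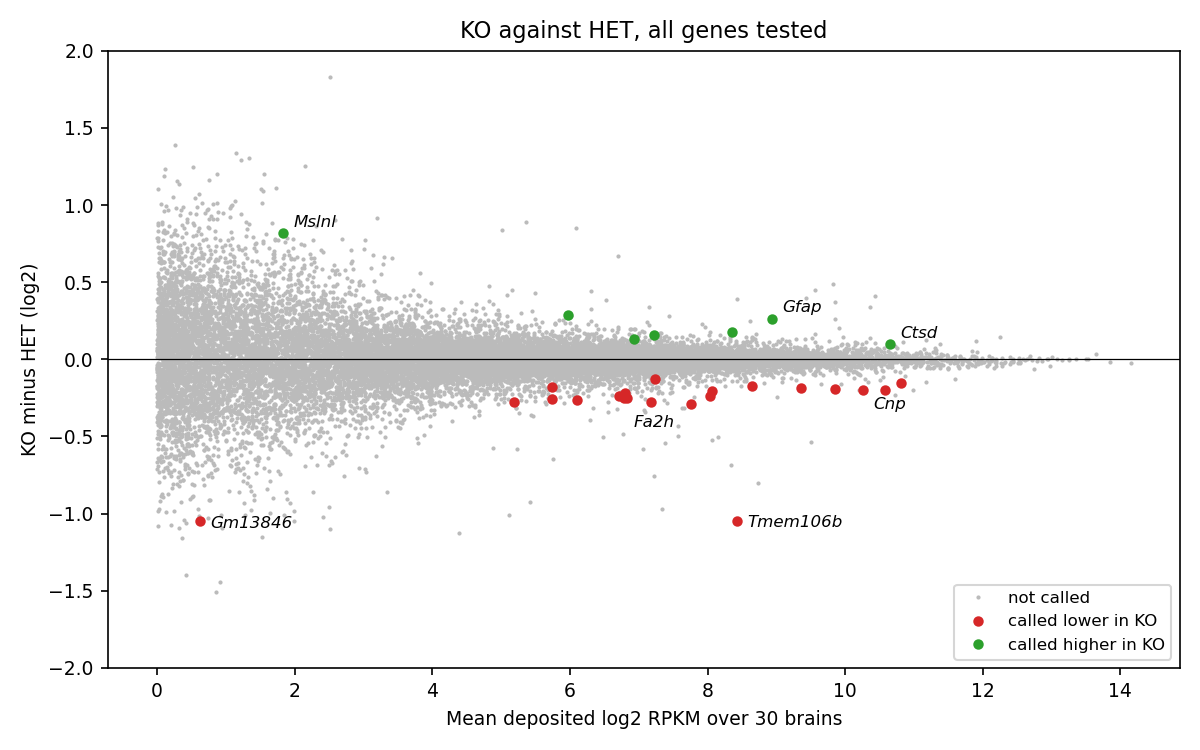
Each point is 1 of the 23695 genes tested, with its mean deposited log2 RPKM over 30 brains on the x axis and the fitted KO minus HET difference (log2) on the y axis; the 21 genes called lower are red and the 7 called higher are green. Apart from Tmem106b and the low genes Mslnl and Gm13846, the called genes lie within 0.3 of 0.

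Most of the genes that fell are known from oligodendrocytes. The lists counted were myelin proteins, other mature oligodendrocyte genes, lineage transcription factors, newly formed oligodendrocytes, and galactolipid and sphingolipid synthesis. Among their 77 tested genes 12 fell and 0 rose. Oligodendrocyte precursors were not counted in, and of those 8 genes 0 were called. The lists were chosen with earlier results of these data known, so such counts are not independent support. Of 18 myelin proteins 6 fell and 12 were not called, and 16 were below HET, with a median of -0.14 against 0.00 over all genes. Mean levels of the list ran from 8.78 to 8.95 in HET and from 8.61 to 8.84 in KO, and 8 of the 10 KO brains were below every HET brain. By cohort the median was -0.12 (cohort 1) and -0.16 (cohort 2), and by sex it was -0.16 (females) and -0.11 (males). In such bulk samples, fewer cells of a type and less RNA per cell cannot be told apart.

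Cldn11, the claudin of the tight junctions between myelin layers, ran from 9.34 through 9.39 to 9.45 in HET and from 9.11 through 9.20 to 9.32 in KO. The groups did not overlap, and the gene fell by 0.19 ± 0.03 on the log2 scale (adjusted p = 6.04e-04). Cnp, an enzyme of the cytoplasmic channels of myelin, ran from 10.22 through 10.31 to 10.38 in HET and from 9.85 through 10.13 to 10.21 in KO. The lowest HET brain was just above the highest KO brain. The difference was -0.20 ± 0.03 (adjusted p = 4.79e-03), and Dnajc7, which overlaps Cnp, differed by -0.02 and was not called. Mal, a raft proteolipid of myelin, ran from 9.76 through 9.92 to 10.00 in HET and from 9.57 through 9.68 to 9.81 in KO, with 8 KO brains below every HET brain. It fell by 0.19 ± 0.03 (adjusted p = 4.79e-03).

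Mog, a glycoprotein on the outer face of myelin, ran from 8.50 through 8.70 to 8.85 in HET and from 8.37 through 8.54 to 8.76 in KO. These ranges overlapped widely, with 4 KO brains below every HET brain, and the fitted fall was -0.17 ± 0.03 (adjusted p = 5.33e-03). Without cohort as a term Mog was not called. Ermn, an actin-linked protein of the myelin sheath, fell by 0.20 ± 0.04. Gjb1, the connexin 32 of oligodendrocyte gap junctions, fell by 0.25 ± 0.05, and it too was not called without cohort.

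Several well-known myelin genes were not among the calls. Mbp, the basic protein that holds the cytoplasmic faces of compact myelin together, differed by -0.06 ± 0.03 (adjusted p = 0.555). Mag, an adhesion molecule facing the axon, differed by -0.10 and Mobp by -0.06. These 3 genes were picked for their place in myelin after values had been seen. Opalin, a sialylated myelin protein, had the largest difference of the list, -0.34 ± 0.08, with adjusted p = 0.0696, and HET and KO overlapped between 6.93 and 7.31.

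**Figure D2:**
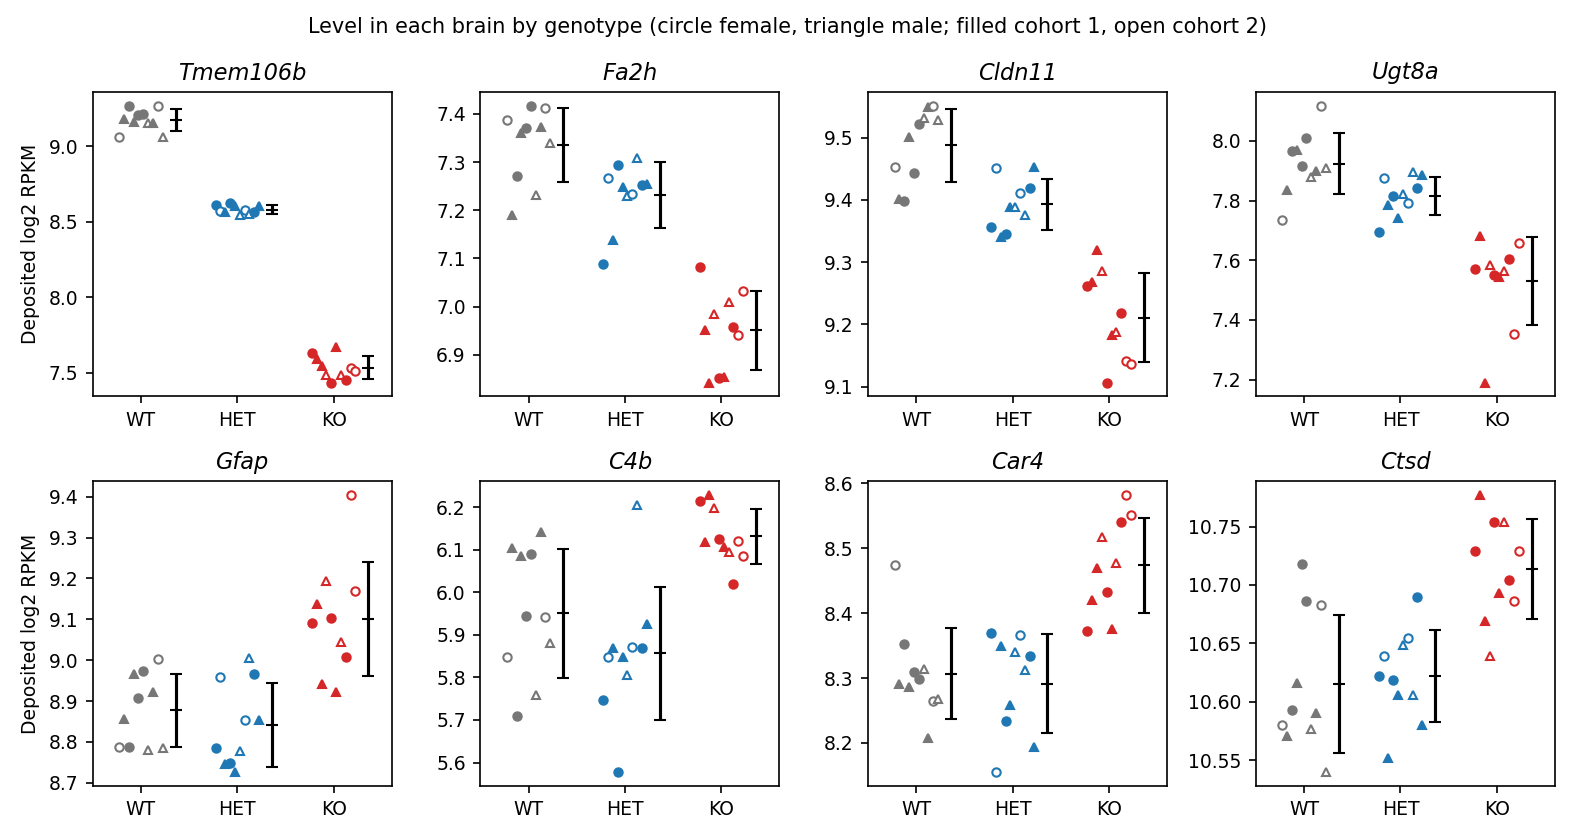
Deposited log2 RPKM of 8 genes (y axis, 1 panel a gene, each with its own scale that does not start at 0) in each brain by genotype (x axis), with circles for females, triangles for males, filled marks for cohort 1 and open marks for cohort 2; bars are the mean ± SD of 10 brains. Tmem106b, Fa2h, Cldn11 and Ugt8a lie lower in KO than in every HET brain, while Gfap, C4b and Ctsd are higher on average with overlapping ranges and Car4 is higher without overlap.

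Fa2h and Ugt8a, enzymes of the galactolipids that fill myelin, also fell. Fa2h, which adds the hydroxyl group to the fatty acids of these lipids, ran from 7.09 through 7.25 to 7.31 in HET and from 6.84 through 6.95 to 7.08 in KO. The groups did not overlap, by a narrow margin, and the fall of 0.28 ± 0.03 (adjusted p = 3.88e-05) had the lowest p after Tmem106b. Ugt8a, which makes galactosylceramide, ran from 7.69 through 7.82 to 7.90 in HET and from 7.19 through 7.57 to 7.68 in KO. It also had no overlap and fell by 0.29 ± 0.05 (adjusted p = 4.36e-03). Of the 12 genes of galactolipid and sphingolipid synthesis these 2 fell and the median was -0.03. Gal3st1, which sulfates galactosylceramide to sulfatide, differed by -0.18 (adjusted p = 0.0915). Of 22 cholesterol synthesis genes 0 were called, and their median was -0.01.

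Another 4 genes of mature oligodendrocytes fell out of 28, with a median of -0.09 and 26 below HET. Adamts4, a protease made by these cells, ran from 6.08 through 6.18 to 6.25 in HET and from 5.78 through 5.91 to 6.01 in KO, without overlap, and fell by 0.26 ± 0.04 (adjusted p = 1.42e-03). Gpr37, a receptor of myelinating oligodendrocytes, fell by 0.24 ± 0.04 (adjusted p = 1.97e-03). Anln, a septin-binding scaffold of the sheath, fell by 0.25 ± 0.04. Trf, the iron carrier transferrin, fell by 0.20 ± 0.04, and so did Gm20425 by 0.15. Trf and Gm20425 overlap in the table, so their reads cannot be told apart and they are not separate evidence.

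Other genes that fell were outside these lists. Lpar1, a receptor for lysophosphatidic acid, fell by 0.24 ± 0.04, and Abca8a, an ABC transporter of lipids, by 0.28 ± 0.05. Galnt6, an enzyme that starts O-linked sugar chains, fell by 0.26 ± 0.04, and its overlapping antisense gene Galnt6os differed by -0.29 (adjusted p = 0.0573). Tuba8 was the only called gene of 12 tubulins, at -0.22 ± 0.04, and its overlapping neighbour Gm15856 differed by -0.25 (adjusted p = 0.0645). Ttyh2, a membrane protein of the tweety family, fell by 0.13 ± 0.02 and had no overlap between groups. Plxnb3, a semaphorin receptor, fell by 0.18 ± 0.04 with adjusted p = 0.0451. Ttyh2, Gm20425 and Plxnb3 stood outside the naming rule and are named after their values were seen. Gm13846, a short gene near the floor of the scale, ran from 0.67 through 1.18 to 1.71 in HET and from -1.52 through 0.01 to 1.05 in KO.

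The transcription factors that set the oligodendrocyte fate lay below HET without passing the test. Of 10 such genes 0 were called, 9 were below HET, 6 had an unadjusted p under 0.05 and the median was -0.11. Myrf, the factor that drives myelin genes, differed by -0.16 ± 0.04 (adjusted p = 0.0826). Sox10, needed throughout the lineage, differed by -0.18 ± 0.05 (adjusted p = 0.226) and Nkx2-2 by -0.20 ± 0.06 (adjusted p = 0.202). Of 9 genes of newly formed oligodendrocytes and 8 of their precursors 0 were called, with medians of 0.02 and -0.04.

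**Figure D3:**
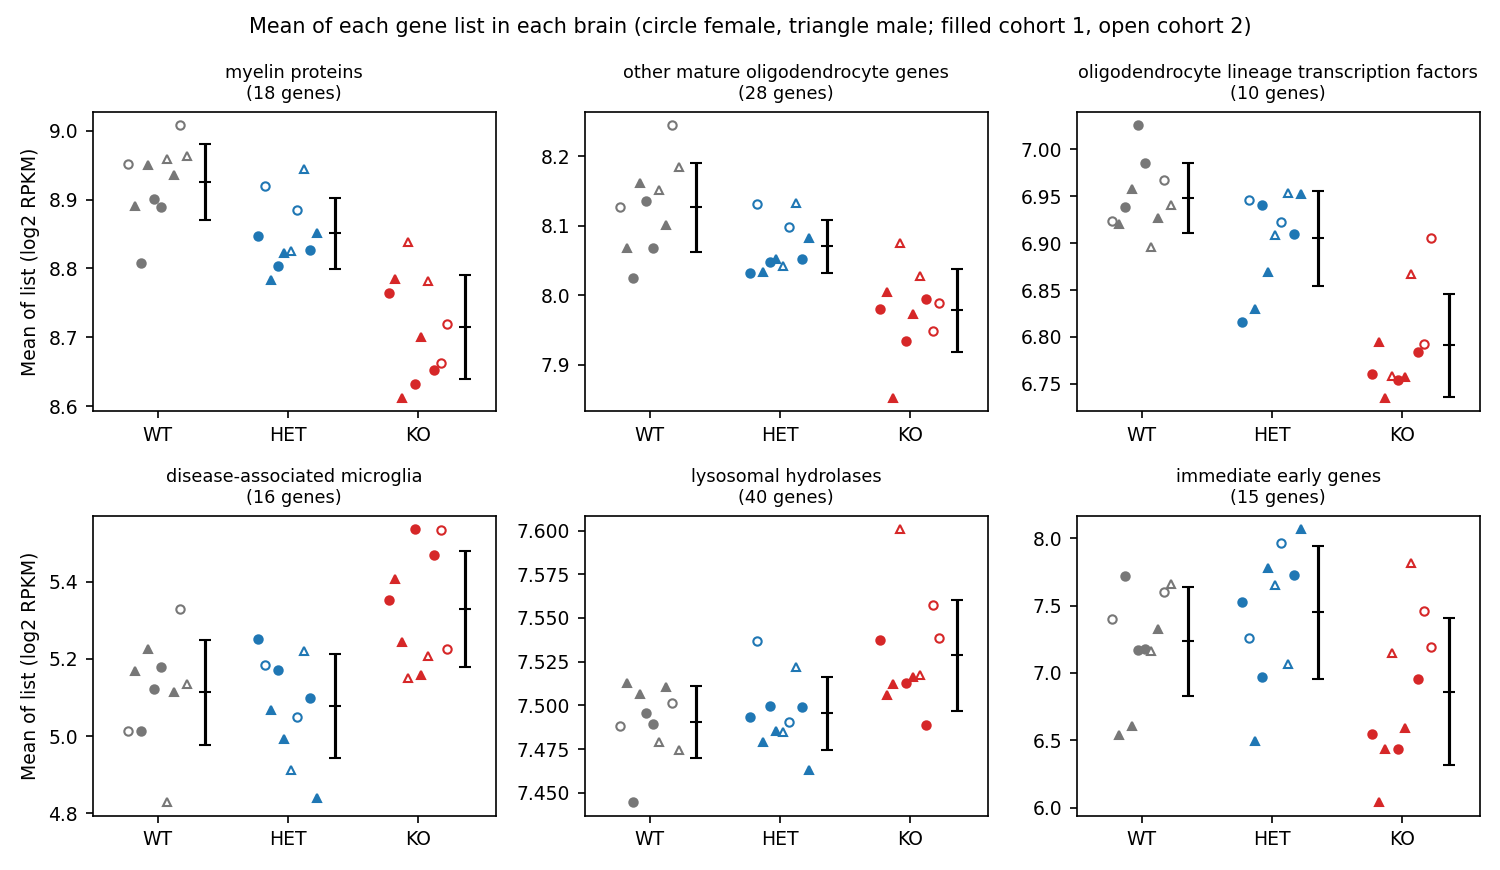
Mean deposited log2 RPKM over the members of 6 gene lists (y axis, each panel with its own scale that does not start at 0) in each brain by genotype (x axis), with circles for females, triangles for males, filled marks for cohort 1, open marks for cohort 2 and bars for the mean ± SD of 10 brains. KO brains sit low for the 3 oligodendrocyte lists and high for disease-associated microglia, and for immediate early genes the low KO brains are mostly of cohort 1.

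Since several myelin genes fell together, the stretches before their starts were searched for short letters on both strands. RefSeq windows (GRCm38.p6, from 250 bases before the start to 50 after) within 1000 bases of the gene start matched 20 of the 28 called genes, 16 lower and 4 higher. The letters ACAANG, a core bound by SOX factors, were in 7 of the 16 windows of lower genes and in 33.7% of 11944 windows of all genes tested. The letters CTGGNAC, a core bound by MYRF, were in 4 of the 16 and in 18.8% of all windows. The letters CAGCTG, an E-box, were in 1 of the 16 and in 15.9% of all, and the letters CACGTG, the E-box of lysosomal gene regulators, in 3 of the 16 and in 9.66% of all. The 4 higher windows held them in 2, 2, 1 and 2 cases. A match is a description of letters, not a bound site. The windows of Cldn11, Mal, Ugt8a, Galnt6, Ttyh2 and Tmem106b, which also fell, held none of these letters. The genes shown next all have a match and do not stand for all genes that fell. Shown are the bases before the gene in 3 genes that fell, Cnp, Mog and Ermn, and in Car4, which rose, 5′ to 3′ along the gene, with these letters or their reverse complement in capitals.
Cnp (chr11:100574689-100574903, plus strand): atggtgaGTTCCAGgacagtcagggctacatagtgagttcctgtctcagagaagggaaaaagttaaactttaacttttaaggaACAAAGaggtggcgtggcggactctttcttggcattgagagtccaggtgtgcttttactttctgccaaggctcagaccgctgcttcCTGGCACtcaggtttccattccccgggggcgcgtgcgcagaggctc
Mog (chr17:37023399-37023648, minus strand): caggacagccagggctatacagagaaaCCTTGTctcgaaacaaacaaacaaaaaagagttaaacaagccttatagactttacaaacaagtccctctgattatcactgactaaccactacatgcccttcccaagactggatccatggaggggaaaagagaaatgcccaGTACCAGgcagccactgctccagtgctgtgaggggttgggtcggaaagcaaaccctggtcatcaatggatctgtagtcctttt
Ermn (chr2:58052865-58053114, minus strand): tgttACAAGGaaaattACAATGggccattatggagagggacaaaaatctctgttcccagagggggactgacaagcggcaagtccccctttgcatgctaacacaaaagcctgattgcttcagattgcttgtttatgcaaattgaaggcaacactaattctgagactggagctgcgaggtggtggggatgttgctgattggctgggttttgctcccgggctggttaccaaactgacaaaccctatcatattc
Car4 (chr11:84957504-84957753, plus strand): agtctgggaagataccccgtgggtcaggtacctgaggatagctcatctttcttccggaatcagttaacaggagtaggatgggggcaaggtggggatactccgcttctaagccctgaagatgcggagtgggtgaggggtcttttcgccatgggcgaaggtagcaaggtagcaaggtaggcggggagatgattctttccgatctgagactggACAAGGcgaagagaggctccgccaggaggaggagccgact

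The 7 genes that rose include genes known from astrocytes, complement and lysosomes. Gfap, the intermediate filament of astrocytes, ran from 8.73 through 8.82 to 9.01 in HET and from 8.92 through 9.10 to 9.40 in KO. The 2 lowest KO brains lay within the HET range and the other 8 above it, and the rise was 0.26 ± 0.05 (adjusted p = 5.33e-03). C4b, complement component 4, ran from 5.58 through 5.86 to 6.204 in HET and from 6.02 through 6.12 to 6.23 in KO. A single HET brain stood among the KO brains, and the rise was 0.29 ± 0.05 (adjusted p = 0.0142). C4a is a near-identical copy of C4b, differed by 0.27 (adjusted p = 0.181), and reads may be split between them. These were the 2 called of 11 reactive astrocyte genes, whose median was -0.00. Of 17 general astrocyte genes 0 were called, with a median of 0.02.

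Ctsd, the lysosomal protease cathepsin D, was the 1 gene called of 40 lysosomal hydrolases. It ran from 10.55 through 10.62 to 10.69 in HET and from 10.64 through 10.72 to 10.78 in KO, with 7 KO brains above every HET brain. The rise was 0.10 ± 0.02 (adjusted p = 0.0228), the smallest of all called differences. It was not called in the fit of the 20 KO and HET brains alone, nor without RIN. The hydrolases had a median of 0.03, with 31 of 40 above HET. Ctsl and Ctss, other cathepsins, differed by 0.10 and 0.14 (adjusted p = 0.135 and 0.221). Of 18 vacuolar ATPase genes, the proton pump of the lysosome, 0 were called (median 0.01), and of 22 lysosomal membrane proteins 0 were called (median 0.01).

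Car4, a carbonic anhydrase of brain capillaries, ran from 8.16 through 8.32 to 8.37 in HET and from 8.37 through 8.47 to 8.58 in KO. Every KO brain was above every HET brain, and the rise was 0.18 ± 0.03 (adjusted p = 4.79e-03). Of 15 endothelial genes 0 were called, with a median of -0.02. Farp1, a guanine nucleotide exchange factor of synapses, rose by 0.15 ± 0.03, and Tada2a, a subunit of histone acetyltransferase complexes, by 0.13 ± 0.03. Mslnl, a mesothelin relative with a mean of only 1.83, rose by 0.82 ± 0.16 and had no overlap between groups.

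Of the microglial genes 0 were called, while most lay above HET. All 16 disease-associated microglia genes were above HET, with a median of 0.20, and 4 had an unadjusted p under 0.05. The mean level of 4 of the 16 was under 2, near the floor of the scale, and with only genes of a mean above 2 the median was 0.095. All 10 KO brains were above the HET mean of the list, and 5 were above every HET brain. Tyrobp, a signalling adaptor of microglia, differed by 0.28 ± 0.06 (adjusted p = 0.0696) and Clec7a, a lectin receptor, by 0.74 ± 0.18 (adjusted p = 0.125). Trem2, the partner receptor of Tyrobp, differed by 0.25 ± 0.07 (adjusted p = 0.173) and was named after its value was seen. Of 20 homeostatic microglia genes 17 were above HET, with a median of 0.06 that was 0.11 in cohort 1 and -0.01 in cohort 2.

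Other lists of cell types and states moved between brains beside these results. The 6 blood genes were all above HET, with a median of 0.43 and 0 called. Their mean ran from 6.88 to 7.93 in HET and from 6.86 to 10.17 in KO, where KO replicate 9 held the highest value and the others reached at most 8.00. Without that brain the median of the blood cells list was 0.13. The 15 choroid plexus genes were all below HET, with 0 called and a median of -0.12, which was -0.30 in females and -0.00 in males. That median was 0.01 without KO replicate 5 and -0.20 without KO replicate 7. Immediate early genes, which follow neuronal activity, had 14 of 15 below HET, 14 at an unadjusted p under 0.05 and 0 called. The median of these 15 genes was -0.54. That median was -0.90 in cohort 1 and -0.05 in cohort 2. Of 17 circadian clock genes 0 were called, 14 were above HET and 10 had an unadjusted p under 0.05, and their median was 0.14 in cohort 1 and -0.02 in cohort 2. Of 9 thalamus genes 0 were called and 8 were below HET, with a median of -0.04, and all 10 KO brains were below the HET mean of the list. Of 13 general neuronal genes 0 were called, and their median was -0.01. The part of blood, choroid plexus, neuronal activity, clock time or brain region in the called genes was not tested.

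Genes next to Tmem106b on the chromosome were looked at separately. Of 59 genes within 5 Mb on chromosome 6, 34 were tested and 0 called, and 1 had an unadjusted p under 0.05. This was Thsd7a, at -0.13 ± 0.03 (adjusted p = 0.128). The called genes Gpr37 and Tuba8 are also on chromosome 6, outside this stretch. Their promoter windows begin at bases 25689931 and 121210484, and that of Tmem106b at 13069509. Whether their falls are tied to the chromosome around Tmem106b was not tested. Among 16 genes of the TMEM106 family and of frontotemporal dementia, with Tmem106b itself not counted in, 0 were called, and the median was 0.01.

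The loss of the second copy was then set beside that of the first. Both steps share the HET brains, so their values are given side by side. HET against WT had 1 call, Tmem106b itself (0.00422% of genes), with 1497 genes at an unadjusted p under 0.05, and KO against WT had 237 calls (1%). The called genes were picked by their KO against HET difference in these same brains. A larger second step was thus partly built into the values that follow. For the 20 genes other than Tmem106b that fell, the median was -0.23 from HET to KO and -0.06 from WT to HET. For the 7 that rose it was 0.18 and -0.04. Fa2h differed by -0.28 and then -0.11 in this order, Cldn11 by -0.19 and -0.09, Mal by -0.19 and -0.11, and Gfap by 0.26 and -0.04.

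A test of the difference between the steps called 1 gene, Tmem106b, 0.00422% of those tested, at -0.46 ± 0.05 on the log2 scale. Its 2 steps were nearly equal on the linear scale, as given above, and on the log2 scale the second starts from the lower HET level. At an unadjusted p under 0.05 there were 1365. The lowest adjusted p of any other gene was 0.438, in Tada2a. C4b and Tada2a were called KO against HET and not KO against WT, where their differences were 0.18 (adjusted p = 0.128) and 0.04 (adjusted p = 0.527). Farp1 was likewise not called against WT (0.11, adjusted p = 0.0555).

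**Figure D4:**
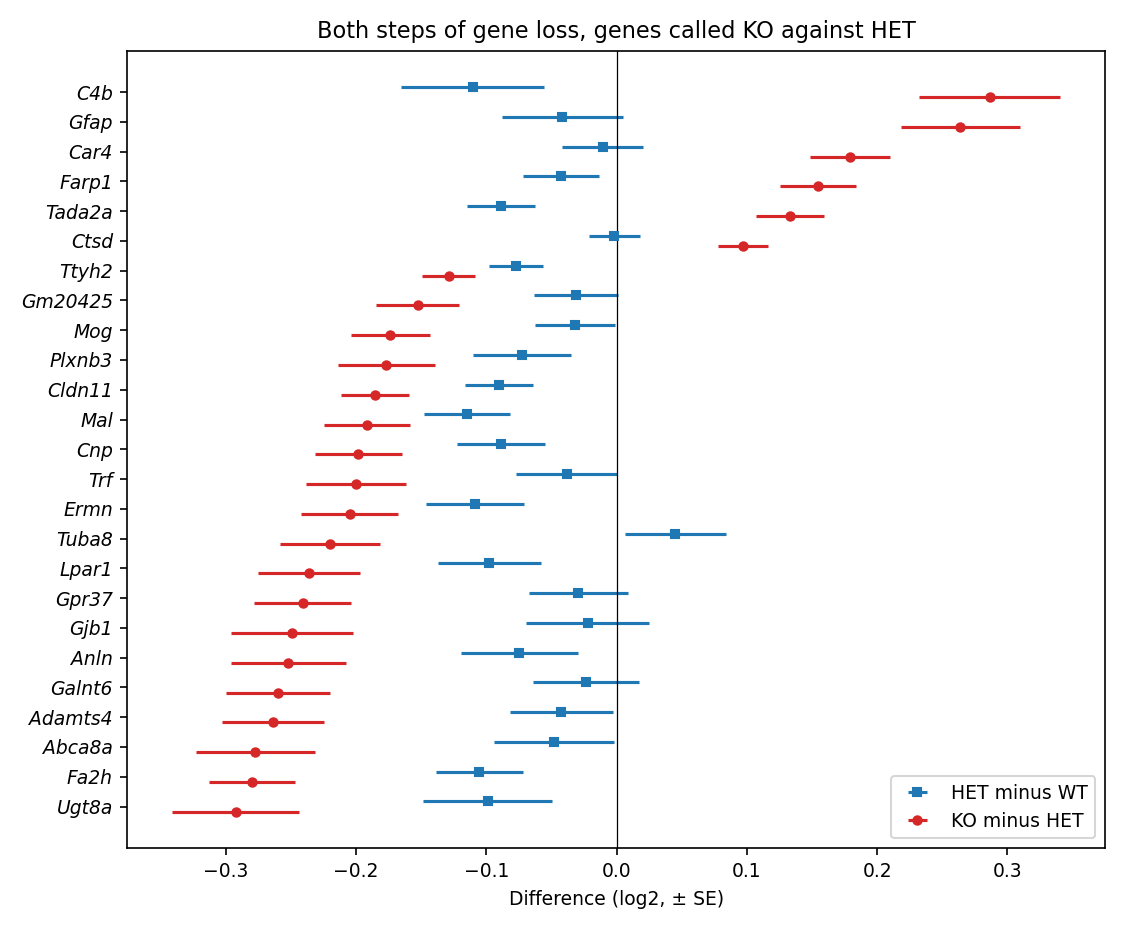
Fitted differences (x axis, log2, ± SE) of 25 genes called KO against HET (y axis), with HET minus WT as blue squares and KO minus HET as red circles; Tmem106b, Mslnl and Gm13846 are left out because they lie far outside this range. For Fa2h the circle is at -0.28 and the square at -0.11, and for Gfap they are at 0.26 and -0.04. The genes were picked by the KO minus HET difference in the same brains, which favours a larger second step.

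KO against HET did not differ detectably between sexes or cohorts. The interaction with sex called 0 genes (0%), with 1160 at an unadjusted p under 0.05 and a lowest adjusted p of 0.409. The interaction with cohort called 0 (0%), with 1171 and 0.224. Cnp differed by -0.28 in females and -0.11 in males, and Gjb1 by -0.30 in cohort 1 and -0.17 in cohort 2. Within 1 cohort or 1 sex few genes were called, namely 12 (cohort 1), 1 (cohort 2), 3 (females) and 2 (males), with fewer brains in each.

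**Figure D5:**
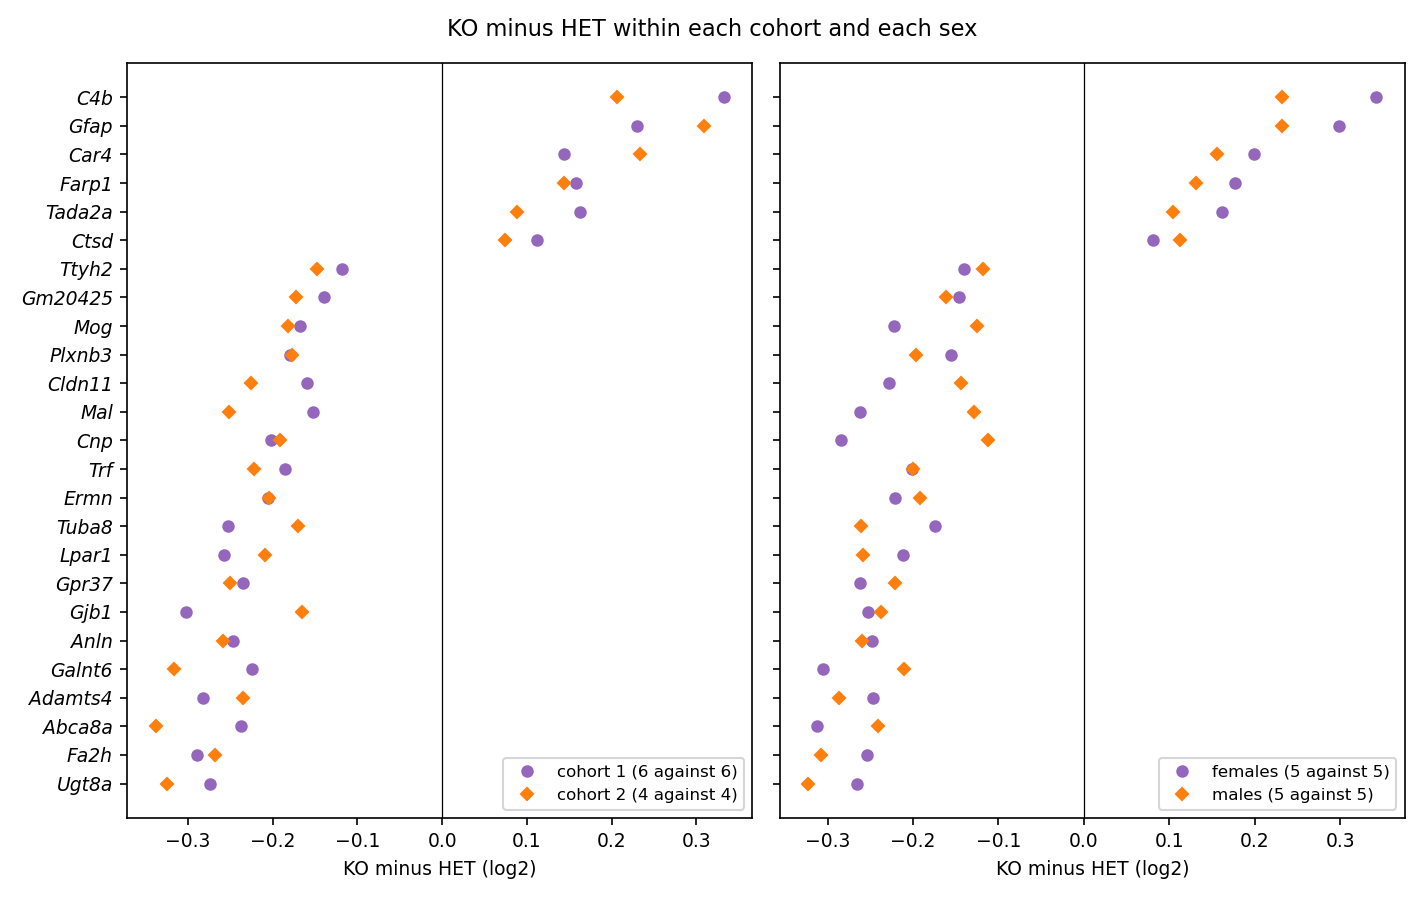
KO minus HET (x axis, log2) of 25 called genes (y axis) within each cohort (left, 6 against 6 and 4 against 4 brains) and each sex (right, 5 against 5 each), without error bars; Tmem106b, Mslnl and Gm13846 are left out as far outside the range. Each gene lies on the same side of 0 in both cohorts and both sexes, which is partly built in, as the genes were called from the same brains pooled.

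Of the technical measures, Xist and Ddx3y matched the sex label in every brain. The lower quartile of a library's values ran from -0.41 to -0.07 in females and from -1.20 to -0.29 in males. By the sample titles, the first 2 rows of the plate held 6 KO brains, 2 HET and 0 WT, so plate position and genotype are partly confounded. With plate row as a term 31 genes were called, of which 25 were among the 28, and with plate column as a term 32 were called, of which 22 were among the 28. Of the 28 called genes 14 overlap another gene of the table, and without strand information such reads cannot be told apart.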

How the data were processed

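RNA-seq was made from the cerebral hemispheres of 30 mice. The authors deposited log2 RPKM values after conditional quantile normalization for 34871 genes, per the file headers. The submitters' processing notes name TopHat2 2.0.12, Bowtie 1.1.0 and the build mm10, whereas counting tool, annotation and strand were not given in the sources used here. Such values carry no counts, so the depth of each library is unknown and precision was judged from the spread between mice. No pseudocount was added.

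Genes with a mean above 0 were kept (23695). The model of limma 3.58.1 (R 4.3.3) had terms for genotype, cohort, sex and RIN, took in the 30 libraries together and used an intensity trend, in two-sided tests with Benjamini-Hochberg adjustment. Tmem106b was also tested by permutation. The fit was tested on simulated data with noise drawn separately for each gene, which leaves out genes that move together between brains. Figures were drawn with matplotlib 3.10.9. Alternatives were other filters, scalings, covariates and variance models, single cohorts or sexes, and leaving out each KO or HET library.

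Members and lists were chosen with earlier results of these data known. The 43 lists hold 676 different genes, of which 671 were tested. The rule names Tmem106b, the 15 largest called changes in each direction (filled up to 10 by lowest p), up to 8 called and 3 uncalled members of each list, and the 5 lowest p of each interaction and of the step contrast. Together with the remaining called genes, Ttyh2, Gm20425 and Plxnb3, this gave 170 genes. The text names part of these, picked after values were seen, and 6 genes beside these 170. A result of 1 gene of the rule is not reported here. Lists not described in the report had 0 called members. Replicate numbers follow accession order and link no animals.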

Additional observations from a re-analysis of the deposited data

Results flagged for a closer look

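A gap test looked for a brain far from the other 9 of its genotype in each called gene and each list mean, in 142 groups, and marked 12. Chance marks about 1 in 20 such groups, so several of these would be seen with no cause, and none was tested further. Of the called genes, 3 had such a brain. Lpar1 was 6.18 in KO replicate 3, where the other KO brains ran from 6.42 to 6.66. Plxnb3 was 5.42 in the same brain, against 5.54 to 5.68. Trf was 10.43 in HET replicate 3, against 10.59 to 10.75 in the other HET brains.

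Among the list means, blood cells stood at 10.17 in KO replicate 9, against 6.86 to 8.00 in the other KO brains. Choroid plexus was 4.89 in KO replicate 5, against 5.40 to 5.97, and in the same brain the genes that differ between C57BL/6 substrains were 7.15, against 6.93 to 7.03. KO replicate 4 was low in cerebellum genes, at 8.965 against 9.17 to 9.32, and high in cytosolic ribosomal proteins, at 9.94 against 9.64 to 9.77. Glucocorticoid-induced genes were 7.72 in KO replicate 3, against 7.05 to 7.23. In HET, reactive astrocyte genes were 5.34 in replicate 8, against 4.68 to 4.93, olfactory bulb genes 6.09 in replicate 9, against 5.41 to 5.65, and autophagy genes 7.91 in replicate 1, against 7.93 to 7.96.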

How the results depend on the processing

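No paired analysis was possible because the replicate numbers follow accession order and link no animals. Total, higher and lower calls KO against HET were 28, 7 and 21. They were 43, 11 and 32 with arrayWeights, 12, 4 and 8 in cohort 1 alone, 1, 0 and 1 in cohort 2 alone, 3, 0 and 3 in females alone and 2, 0 and 2 in males alone. Fewer brains enter the last 4 fits, and the cause of the other changes was not tested. On leaving out each library, the total ran from 24 to 44 (44 without KO replicate 7), higher calls from 5 to 12 (12 without KO replicate 10) and lower calls from 18 to 34 (34 without KO replicate 7). The test between the steps called 0 genes in cohort 2 alone and 0 in females alone, and from 1 to 2 on leaving out each library (2 without KO replicate 7). The interaction with cohort called 1 gene by eBayes without trend. With the 20 KO and HET libraries alone 26 genes were called, 22 of them shared with the 28. Quantile normalization, median centring and a linear scale plus 1 each gave 28, all shared. Over 39 alternatives the median of the myelin proteins ran from -0.16 to -0.11.
Some calls depended on single libraries. Plxnb3 was lost on leaving out any of 14 of the 20 (adjusted p up to 0.106), Gm20425 for 13 (up to 0.0896) and Gm13846 for 9 (up to 0.0698). Ctsd was lost without HET replicate 3, HET replicate 4, KO replicate 7 or HET replicate 10 (up to 0.0719), Tada2a without KO replicate 3, HET replicate 3, KO replicate 9 or HET replicate 9 (up to 0.0584), Mslnl without KO replicate 3 (0.0509) and Trf without KO replicate 9 (0.0532). Among other settings, over all brains or the 20, Gm20425 was lost in 7 of 15 (up to 0.0849), Ctsd in 6 (up to 0.134), Plxnb3 in 5 (up to 0.119), Gjb1 in 3 (up to 0.099), Mog in 2 (up to 0.217), and C4b (0.0545), Trf (0.0644) and Tada2a (0.0667) in 1 each. Gm13846 was lost in 3 of 14 (up to 0.0667) and Mslnl in 1 of 14 (0.0573), as neither has the mean above 2 that the stricter filter needs. With plate column as a term 32 genes were called, 22 of them shared with the 28.
Of the 28 called genes 0 changed sign under these alternatives, which refit the same brains that gave the calls. Of the 147 uncalled genes reported that the naming rule gave or that were added beside it, 33 changed sign at least once, in 62 values, 39 of them within a single cohort or sex. In cohort 2 alone they were Pecam1 0.017, Per3 -0.041, Sox9 0.017, Tac1 -0.024, Cldn5 0.12, Hsp90b1 0.00405, Calr 0.00383, Rarres2 -0.047, Mapt 0.014, Gm28370 -0.16, Wdfy1 -0.00196, Gm9047 -0.88, Rsad2 0.00321, Pmch -0.011, Amot 0.11, Gpr6 -0.021, Drd1a -0.065, Med31 -0.018, Ihh 0.89, Gm24608 -0.12. In females alone they were Lef1 0.013, Slc17a7 0.00342, Herpud1 -0.028, Mapt 0.00437, Rsad2 0.11, Pmch -0.022, Tuba1a 0.00765, Irf7 -0.00152, Cyfip2 0.020, Med31 -0.12, Cdkn3 0.65. In males alone they were Folr1 0.016, Cers2 0.013, Uqcrc2 0.012, Gm14519 0.25, Ifi27 0.072, Gm24608 -0.78, Gm13156 -1.61. Elsewhere they were Gm13156 -0.094 (genotype alone), Gm13156 -0.094 (without RIN), Gm13156 -0.00183 (without cohort), Ihh 0.049 (plate row added), Gm13156 -0.047 (arrayWeights), Gm13156 -0.68 (cohort 1 alone). On leaving out single libraries, Cdkn3 ran from -0.27 to 0.014, Gm13156 ran from -0.25 to 0.33, Gm24608 ran from -0.10 to 0.25, Ihh ran from -0.19 to 0.022.
The read depth of the libraries is unknown, so no counting error can be given for low genes such as Gm13846 and Mslnl.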
